A study of Saccharomyces cerevisiae with 18 samples.

Results

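Disome enrichment of the triple deletion *ncs2*∆*elp6*∆*hel2*∆ was compared with that of *hel2*∆ to ask on which transcripts paired ribosomes accumulate when wobble-uridine modifications are missing and Hel2 cannot act. Disome enrichment is the log2 change in disome footprints minus the log2 change in monosome footprints of the same gene, so a gene is called enriched when its disomes gained on its monosomes and depleted when they lost ground. All genes listed in both count tables were taken, which gave 5693 of the 6159 genes in either table, and 5030 of them had enough footprints to be tested. In ribosome profiling, the pieces of mRNA that ribosomes shield from RNase I (footprints) are sequenced. Single ribosomes (monosomes) and stacked pairs (disomes) were collected from separate fractions of a sucrose gradient. Each strain had 2 libraries of each kind, 8 in all. Both strains are given as BY4741, a laboratory strain of budding yeast of mating type a, and were grown in rich medium (YPD) at 30 °C. They share the alleles *his3*∆1, *leu2*∆0 and *ura3*∆0 as well as *hel2*∆::*LEU2*, and the triple deletion carries *ncs2*∆::*HIS3MX* and *elp6*∆::*URA3* in addition. The same question with *HEL2* present was asked with *ncs2*∆*elp6*∆, which has these last alleles and an intact *HEL2*, and with the wild type, which is labelled *met15*∆0 beside the shared auxotrophies. That comparison rests on 10 other libraries.

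Uridine at the wobble position of several cytosolic tRNAs is modified by the Elongator complex, of which Elp6 is a subunit, and by the Urm1 pathway, in which Ncs2 acts in thiolation. Without these modifications, lysine, glutamine and glutamate tRNAs read their A-ending codons less well. A ribosome that stalls can be hit by the one behind it. Hel2, a ubiquitin ligase, recognises the interface of the collided pair, marks the small subunit and thereby starts ribosome-associated quality control, in which the stalled ribosome is split. A disome count on a gene depends on how many ribosomes translate it as well as on how often they collide, which is why the monosome change is subtracted.

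The 4 monosome libraries held between 2381991 and 4352295 counts and the 4 disome libraries between 1015861 and 2521397. Replicates differed by more than counting noise, by a chi-square per degree of freedom of 1.35 for the *hel2*∆ and 3.52 for the triple deletion monosome pair, and of 6.08 and 2.13 for the respective disome pairs. The deleted genes were low where the labels say so. HEL2 had 6 and 4 monosome counts in *hel2*∆ and 1 and 3 in the triple deletion, whereas ELP6 went from 65 and 96 counts to 0 and 3, and NCS2 from 64 and 90 to 5 and 0. All 6 markers of mating type a were present, and the 4 alpha markers had at most 15 counts per monosome library. The strains differed at a locus the labels do not name as a difference between them. MET17, the gene also called MET15, had 1 monosome count in each *hel2*∆ library and 517 and 894 in the triple deletion. It differed in the same way with *HEL2* present, at 24, 0 and 0 monosome counts in wild type and 5967, 4525 and 2953 in *ncs2*∆*elp6*∆. In both comparisons its status therefore cannot be told apart from the loss of the modifications. Marker genes also departed from the stated alleles. URA3 had 0 monosome counts in both triple deletion libraries, although that strain is labelled *elp6*∆::*URA3*. LEU2 had 22 and 25 monosome counts in *hel2*∆ and 59 and 102 in the triple deletion, although both carry *hel2*∆::*LEU2*. The cause was not tested. The study describes its replicates as biological.

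Disome enrichment differed for 457 of the 5030 genes tested, which is 9.09% of them (edgeR quasi-likelihood test, adjusted p under 0.05). Enrichment was called for 230 genes (4.57%) and depletion for 227 (4.51%), and the log2 change was larger than 1 for 182 of the called genes, 94 upwards and 88 downwards. All 457 had disome to monosome ratios in the same-numbered triple deletion libraries that lay beyond both *hel2*∆ ratios, as did 2578 (51.3%) of all genes tested. The near-equal split between the directions depended on the scaling. With library totals alone, without TMM, the median of all genes moved from −0.005 to 0.104 and the split was 327 enriched against 156 depleted. The number of calls also depended on single libraries. It was 190 and 174 without replicate 1 and replicate 2 of the *hel2*∆ monosomes, 232 without replicate 2 of the triple deletion monosomes, 297 and 255 without replicate 1 and replicate 2 of the triple deletion disomes, and 832 without replicate 1 of the *hel2*∆ disomes. DESeq2 called 265 genes, 256 of which were among the 457.

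Many more genes changed in the footprints themselves than in their balance. Disome counts differed for 1481 genes (29.4%), 767 of them higher (15.2%) and 714 lower (14.2%) in the triple deletion. Monosome counts differed for 1601 genes (31.8%), 838 higher (16.7%) and 763 lower (15.2%). No mRNA was measured in these libraries, so fewer transcripts and fewer ribosomes per transcript cannot be told apart. Most enriched genes had gained disomes. Of the 230, disomes were called higher for 169 and monosomes lower for 77, and neither change was called on its own for 7. Their median change was 0.74 in disomes and −0.20 in monosomes on the log2 scale. Depletion was more mixed. Of the 227 depleted genes, disomes were called lower for 131 and monosomes higher for 103, and for 21 the disomes were called higher although the gene was depleted, since the monosomes rose further.

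**Figure D1:**
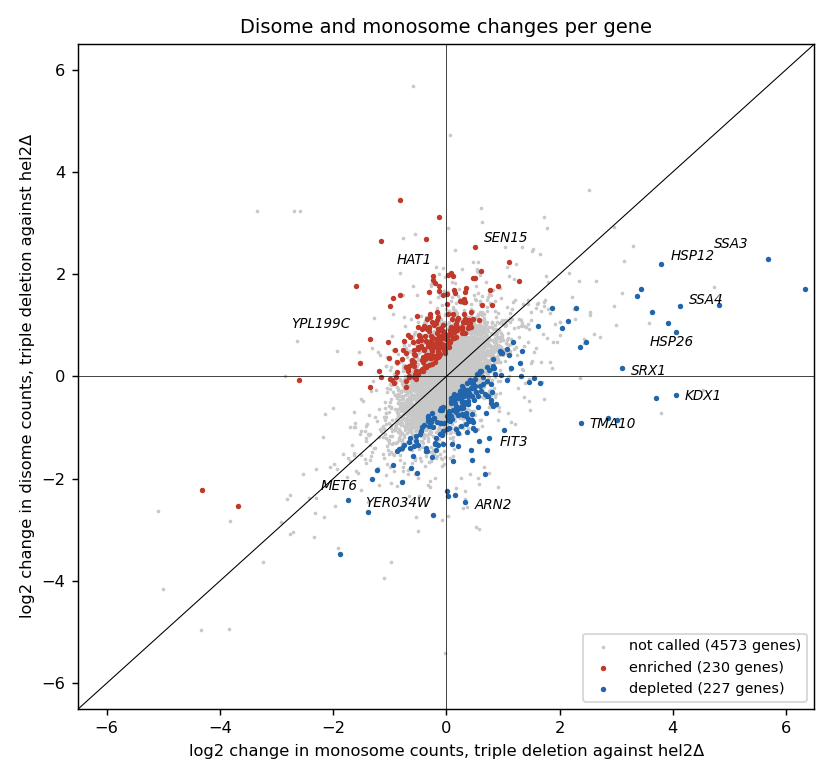
Log2 change of each of the 5030 tested genes in monosome counts (x axis) and disome counts (y axis), triple deletion against *hel2*∆, with enriched genes in red, depleted genes in blue and the line of equal change in black. The 230 enriched genes lie above the line, mostly near a monosome change of 0, and the 227 depleted genes below it, with SSA3, SSA4 and HSP26 far to the right. The axes leave out 4 genes.

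The 12 most enriched genes with a mean of at least 20 counts in each kind of library encode proteins of several compartments. They are MEF2 and CBP3 of the mitochondrion, NCB2 and HAT1 of transcription and chromatin, TEX1 of the mRNA export complex THO, SEN15, PCC1 and RRP7 of RNA processing, NAT5 of the N-terminal acetyltransferase NatA, the mannosyltransferase YUR1, the mitotic exit gene BNS1 and the uncharacterised YPL199C. Their log2 changes ranged from 2.20 for MEF2 to 1.56 for RRP7. In all 12 the disomes were called higher. The monosome change of 10 of them, between −0.24 and 0.51, did not pass the test, whereas the monosomes of YPL199C and PCC1 were called lower.

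HAT1 (YPL001W; chromosome XVI, 554605 to 555729 in R64), the catalytic subunit of a histone acetyltransferase that acts on new histone H4, shows the common form. Its disome counts were 38 and 69 in *hel2*∆ and 150 and 207 in the triple deletion, while its monosome counts were 70 and 133 against 84 and 174. Scaled to library size, the disome level went from 38.6 ± 4.14 to 153 ± 26.1 CPM and the monosome level from 30.4 ± 6.83 to 32.2 ± 3.21 CPM (SD, n = 2 each). Each triple deletion library of disomes thus held more than either *hel2*∆ library, and the monosome levels overlapped. The log2 change in enrichment was 1.94 (SE 0.27, edgeR adjusted p = 0.000114). CBP3 (YPL215W; chromosome XVI, 147416 to 148423), which is needed to make cytochrome *b*, behaved alike. Its disome level went from 27.4 ± 0.0609 to 108 ± 1.23 CPM and its monosome level from 41.9 ± 4.66 to 41.7 ± 7.64 CPM (SD, n = 2 each), a change in enrichment of 1.95 (SE 0.26, edgeR adjusted p = 8.57e-05). NCB2 (YDR397C; chromosome IV, 1266366 to 1266898), a subunit of the general transcription repressor NC2, had closely repeated ratios of −1.58 and −1.59 in *hel2*∆ and of 0.36 and 0.59 in the triple deletion. Its change was 2.13 (SE 0.29, edgeR adjusted p = 8.69e-05).

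For NAT5 (YOR253W), the ratios were −1.18 and −0.97 in *hel2*∆ against 0.74 and 0.30, with a monosome change of 0.0034 and a disome level that rose from 30.0 ± 2.21 to 93.1 ± 19.2 CPM (SD, n = 2 each). In YPL199C (chromosome XVI, 172033 to 172755), the change was in both kinds of footprint. Its monosome level fell from 103 ± 7.08 to 40.5 ± 2.91 CPM while its disome level went from 41.0 ± 3.85 to 67.0 ± 4.77 CPM (SD, n = 2 each). This gave a change in enrichment of 2.08 (SE 0.23, edgeR adjusted p = 1.03e-05). PCC1 (YKR095W-A), a subunit of the KEOPS complex that modifies adenosine in tRNAs, also combined both, with a monosome change of −0.52 and a disome change of 1.18. The high disome values were shared by both triple deletion libraries in all of these genes.

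Several of the 12 rested on few disome counts. MEF2, a mitochondrial translation factor, had 4 and 15 disome counts in *hel2*∆ and 18 and 43 in the triple deletion, and without replicate 2 of the triple deletion disomes its change was 1.51 with an adjusted p of 0.115. Without replicate 2 of the triple deletion monosomes its adjusted p was 0.0634. SEN15, a subunit of the tRNA splicing endonuclease, had 12 and 6 disome counts in *hel2*∆, where its ratios were 0.49 and −0.92. Its change of 2.03 became 0.97 without replicate 2 and 3.07 without replicate 1 of the *hel2*∆ disomes, and its call was lost in 6 of 16 alternatives. RRP7, a pre-rRNA processing factor, had ratios of −0.97 and −2.62 in *hel2*∆, and its change of 1.56 likewise ran from 0.61 to 2.44 between these settings. It lost its call in 5 of 17 alternatives, at an adjusted p of 0.236 without replicate 2 of the *hel2*∆ disomes, of 0.0635 and 0.0516 without replicate 1 and replicate 2 of the triple deletion disomes and of 0.0581 without replicate 2 of the triple deletion monosomes. TEX1 lost its call without replicate 2 of the *hel2*∆ disomes, at a change of 1.29 and an adjusted p of 0.0661. NCB2, YPL199C, YUR1, CBP3, HAT1, BNS1, PCC1 and NAT5 kept their calls when any single library was left out.

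**Figure D2:**
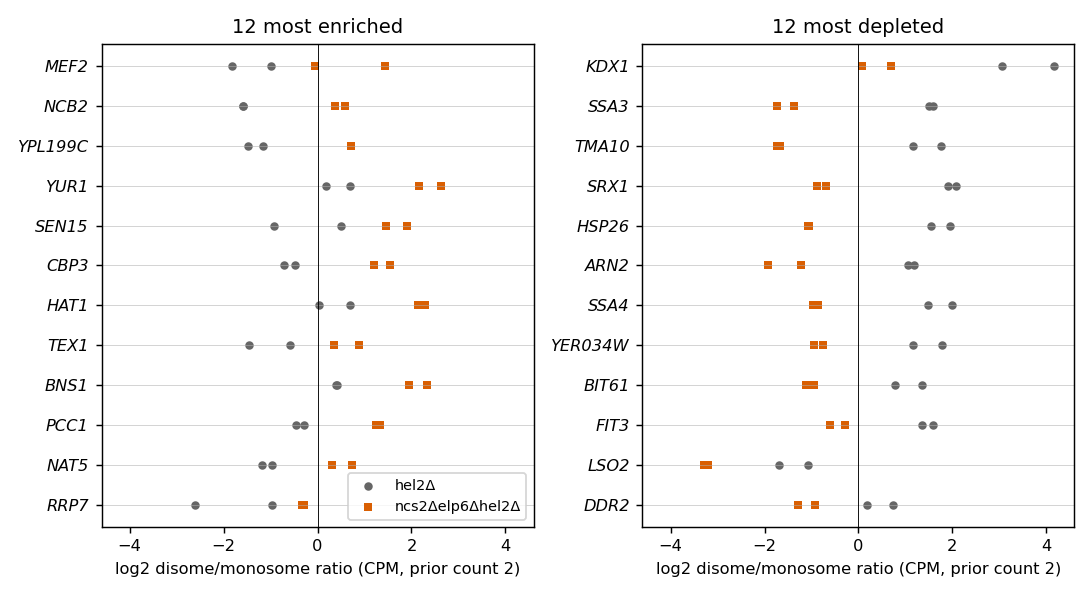
Log2 ratio of disomes to monosomes (x axis, CPM with a prior count of 2) in the same-numbered library pairs of *hel2*∆ (grey circles) and the triple deletion (orange squares) for the 12 most enriched and the 12 most depleted genes. The squares lie to the right of the circles in the left panel and to their left in the right panel, as the rule for naming these genes required. RRP7, MEF2 and SEN15 have widely spaced *hel2*∆ values.

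The most depleted genes fell into 2 kinds. The first were heat shock and stress genes whose monosomes rose many fold in the triple deletion, while their disomes rose much less or not at all. SSA4 (YER103W; chromosome V, 364589 to 366517), a stress-inducible Hsp70 chaperone, had 106 and 140 monosome counts in *hel2*∆ and 1782 and 3448 in the triple deletion. Its disome counts were 100 and 290 against 359 and 450. The monosome level thus rose by 4.12 on the log2 scale and the disome level by 1.38, and enrichment fell by 2.74 (SE 0.19, edgeR adjusted p = 3.06e-09). HSP26 (YBR072W; chromosome II, 382030 to 382674), a small heat shock protein that holds unfolded proteins, had log2 disome to monosome ratios of 1.54 and 1.95 in *hel2*∆ and of −1.08 and −1.06 in the triple deletion. Its monosome level went from 37.0 ± 2.90 to 556 ± 21.9 CPM and its disome level from 126 ± 15.8 to 264 ± 13.8 CPM (SD, n = 2 each), and enrichment fell by 2.87 (SE 0.17, edgeR adjusted p = 3.54e-10). SSA3 (YBL075C), the other stress-inducible cytosolic Hsp70, had 7 and 11 monosome counts in *hel2*∆ and 369 and 787 in the triple deletion. Its change in enrichment was −3.39 (SE 0.46).

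The oxidative stress gene SRX1, which encodes sulfiredoxin, showed a monosome rise of 3.10 with a disome change of 0.16 that did not pass the test. DDR2, a gene induced by many stresses, was depleted by −1.80, but without replicate 2 of the *hel2*∆ disomes its change was −1.06 with an adjusted p of 0.350, and without replicate 1 of the *hel2*∆ monosomes its adjusted p was 0.0587. TMA10 (YLR327C), which encodes a ribosome-associated protein, differed from these genes in that its disomes fell. Its monosome counts were 55 and 61 in *hel2*∆ and 272 and 451 in the triple deletion, whereas its disome counts were 42 and 109 against 32 and 33. The change in enrichment was −3.28 (SE 0.28, edgeR adjusted p = 1.06e-07). KDX1, which encodes a protein kinase homologue of the cell wall integrity pathway, had a fitted change of −4.40. This rests on 2 monosome counts in each *hel2*∆ library, and the KDX1 monosomes met the minimum of 20 through the triple deletion libraries alone. Its monosome counts in the triple deletion were 17.8-fold higher with a 95% counting interval from 6.72 to 66.9 (exact, counting error only). Without replicate 2 of the *hel2*∆ disomes its change in enrichment was −3.76. KDX1 was not the only such gene. The monosomes of SSA3 and SRX1 and the disomes of SSA3, MEF2, SEN15, TEX1 and YUR1 also met the minimum through the triple deletion alone. The disomes of YER034W, BIT61, LSO2, ARN2 and KDX1 met it through *hel2*∆ alone. The changes of these genes rest on few counts in the other strain.

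The second kind lost disomes, while the monosomes of YER034W, BIT61 and ARN2 had changes that did not pass the test and those of LSO2 and FIT3 rose. YER034W (chromosome V, 221846 to 222403), an uncharacterised gene, had 52 and 73 monosome counts in *hel2*∆ and 53 and 101 in the triple deletion, but its disome counts were 61 and 85 against 12 and 12. Its disome level thus fell from 55.3 ± 16.1 to 10.4 ± 0.580 CPM (SD, n = 2 each), and its change in enrichment was −2.37 (SE 0.39, edgeR adjusted p = 0.000482). BIT61, a subunit of the growth regulator TORC2, had disome counts of 20 and 51 against 7 and 5, with a monosome change of 0.01. ARN2, a transporter of iron-binding siderophores, had 26 and 55 disome counts in *hel2*∆ and 8 and 4 in the triple deletion. Its change was −2.78, and −3.41 without replicate 1 of the triple deletion disomes. LSO2, whose product binds ribosomes as cells resume growth after starvation, had disome counts of 30 and 36 against 8 and 12, with a monosome change of 0.43, and its adjusted p for enrichment was 0.0536 without replicate 1 of the triple deletion disomes. FIT3, a cell wall mannoprotein that holds siderophores, lost disomes (log2 change −1.21) and gained monosomes (0.75).

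Across all tested genes, depletion was frequent where monosomes had risen. Of the 49 genes whose log2 monosome change was above 2, 22 were depleted and 0 enriched, and their median change was −1.79 in enrichment but 1.12 in disomes. Of the 32 genes with a change under −2, 3 were enriched and 0 depleted, with medians of 0.46 and −2.37. The monosome change is part of the enrichment value, so the sign of this relation is partly built in. Calls were also unevenly spread over gene length and level. In the fifth of the genes with the shortest RefSeq length, up to 702 bases, 7.26% were enriched and 6.37% depleted, whereas in the fifth with the longest, from 2170 bases, these shares were 3.38% and 3.28%. In the fifth with the lowest monosome level 1.59% were enriched and 1.99% depleted, and in the highest 8.25% and 10.9%, where the counts leave less error.

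Chaperones were the list with the most depleted members. Of 39 chaperone genes tested, 14 were depleted, with a median change of −0.27 beside −0.005 for all genes and a background of 4.51%. By edgeR 0 were called enriched, as by DESeq2, while 2 were at an unadjusted p under 0.05 and up to 2 were called when the filter or the scaling was changed. The depleted members were the inducible and constitutive Hsp70 genes SSA3, SSA4 and SSA1, the small heat shock genes HSP26 and HSP42, the disaggregases HSP104 and HSP78, HSP82, FES1, SSE2, SIS1, ZUO1, CCT6 and BTN2, a sorting factor for misfolded proteins. Monosomes of the list were called higher for 23 genes and disomes for 17, beside 16.7% and 15.2% of all genes. HSP82 (YPL240C), an Hsp90, had monosome levels of 1340 ± 84.4 and 3370 ± 68.2 CPM and disome levels of 4030 ± 501 and 5690 ± 41.4 CPM in *hel2*∆ and the triple deletion (SD, n = 2 each). Its enrichment therefore fell by 0.83 (SE 0.16, edgeR adjusted p = 0.00218) although both kinds of footprint rose.

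Genes of glycolysis and fermentation were the counterpart, as their footprints fell in both fractions. Of 24 genes, monosomes were called lower for 16 and disomes for 19, beside 15.2% and 14.2% of all genes, and 7 (29.2%) were depleted beside 4.51%, with a median change in enrichment of −0.40. Enrichment was called for 0 by edgeR and by DESeq2, with 1 gene at an unadjusted p under 0.05. Depletion was not particular to this comparison. With *HEL2* present, 16 of the 24 (66.7%) were depleted beside 8.68% of all genes, with a median change of −0.54. TDH1 (YJL052W), a glyceraldehyde-3-phosphate dehydrogenase, had disome counts of 293 and 765 in *hel2*∆ and 67 in each triple deletion library, and monosome counts of 316 and 455 against 118 and 241. Its enrichment fell by 1.27 (SE 0.20, edgeR adjusted p = 0.000404). TDH2, ENO1, HXK1, HXK2, GLK1 and ADH1 were the other members depleted in the triple deletion. The TDH genes are near-identical and reads they share were not counted, which makes their counts uncertain. Of the 27 tested genes of sulfate assimilation and methionine synthesis, 3 (11.1%) were depleted in the triple deletion beside 4.51%. They were MET6, CYS3 and SAM1. For MET6, methionine synthase, disomes fell by 2.01 and monosomes by 1.32. The strains differ at MET17 in the same pathway, and the part of this locus in these values was not tested.

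Iron uptake genes had the lowest median of the lists, −0.65 over 16 genes tested of 21 listed. Depletion was called for 5 (31.2%), beside 4.51% of all genes. They were the siderophore transporters ARN2 and ENB1, the mannoproteins FIT2 and FIT3 and the iron permease FTR1. No gene of the list was enriched at an adjusted or an unadjusted p under 0.05 by edgeR, or by DESeq2. FIT2 had 99 and 149 monosome counts in *hel2*∆ and 342 and 518 in the triple deletion, with disome counts of 35 and 89 against 50 and 48. Thus its monosomes rose by 1.55 on the log2 scale, its disome change was −0.04, and enrichment fell by 1.59 (SE 0.26, edgeR adjusted p = 0.000463). In this list monosomes were called higher for 10 genes and disomes lower for 3, beside 16.7% and 14.2% of all genes.

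Genes of the translation apparatus were called in both directions, in some lists at about the share of all genes (4.57% enriched and 4.51% depleted). Of 134 cytosolic ribosomal protein genes, 14 (10.4%) were enriched and 6 (4.48%) depleted, with a median of 0.027. Their monosomes were called lower for 70 and their disomes for 55, beside 15.2% and 14.2% of all genes. With library totals alone 38 were enriched and 7 depleted. RPS27A was the most enriched at 0.90 (SE 0.17, edgeR adjusted p = 0.00134), with a monosome change of −0.71 and a disome change of 0.19. RPS20 was depleted by −1.11 (SE 0.16, edgeR adjusted p = 0.000153), with disome counts of 3450 and 8478 in *hel2*∆ and 1967 and 1860 in the triple deletion at monosome counts of 7727 and 10568 against 6711 and 12658. RPL30 was depleted by −1.07. Many of these genes have close paralogs, so their counts are uncertain. Among 107 ribosome biogenesis genes, 5 (4.67%) were enriched and 3 (2.80%) depleted, which is near or below the shares of all genes, and DESeq2 called 2 and 2. Enriched were RRP7, NHP2 (1.15), UTP4 (0.85), NMD3 (0.60) and NOP14 (0.56), and depleted were NSA2, UTP20 and PUF6. NMD3, NOP14 and PUF6 each lost their call in 10 of 17 alternatives and UTP20 in 7.

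Of 39 translation factors, 4 (10.3%) were enriched and 6 (15.4%) depleted. The enriched ones were all initiation factors, GCD1 and SUI2 of eIF2B and eIF2, NIP1 of eIF3 and CDC33, the cap-binding eIF4E. The depleted ones were both eIF4G genes (TIF4631 and TIF4632), HCR1, SUI1 and the elongation factor genes TEF1 and CAM1. TEF1 and TEF2 encode the same protein from near-identical sequences, which makes the TEF1 value of −0.89 uncertain. In the proteasome, with 32 genes, monosomes were called higher for 22 and disomes for 21, beside 16.7% and 15.2% of all genes. Enrichment was called for 4 (PRE1, PRE4, PUP2 and RPN10), or 12.5% beside 4.57% of all genes. Depletion was called for 7, or 21.9% beside 4.51%. DESeq2 called 3 enriched and 4 depleted, and library totals alone gave 5 and 2. Of the depleted genes, PUP1 and RPN2 lost their call in 10 of 17 alternatives. RPT4 lost it in 9, RPN11 in 8, RPT2 in 7, RPT1 in 5 and PRE2 in 1. Among the enriched, PRE1 lost it in 7, PRE4 in 3, RPN10 in 2 and PUP2 in 0. Of the 20 cytosolic aminoacyl-tRNA synthetase genes, TYS1 for tyrosine was the single call (0.61, enriched). The medians of these lists were between −0.08 and 0.03 and moved with the median of all genes when the scaling was changed.

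Genes of collision sensing and rescue had a median change of 0.034. Of 30 tested, 5 (16.7%) were depleted beside 4.51% of all genes, and 3 were with DESeq2 or with library totals alone. Enrichment was called for 0 by edgeR and by DESeq2, with 3 genes at an unadjusted p under 0.05. SYH1, a relative of the mammalian GIGYF proteins that act at stalled ribosomes, was depleted by −1.11 (SE 0.18, edgeR adjusted p = 0.000500), with monosome counts of 248 and 331 in *hel2*∆ and 449 and 764 in the triple deletion and disome counts of 106 and 243 against 100 and 129. Its paralog SMY2, the segregase CDC48, the Ski complex gene SKI3 and RBG2 were depleted by between −0.67 and −0.51. SKI3 and RBG2 each lost their call in 9 of 17 alternatives, and SMY2 and CDC48 each in 3. Of the 22 tested genes of wobble-uridine modification other than the deleted ones, 0 were called by edgeR and by DESeq2 and 1 had an unadjusted p under 0.05. Monosomes of 8 and disomes of 7 of them were called higher, beside 16.7% and 15.2% of all genes. Targets of Gcn4, the activator of amino acid biosynthesis genes, gave 1 enriched gene of 41 (ILV3), or 2.44% beside 4.57% of all genes. Depletion was called for 3 (GLN1, ARO3 and TRP5), or 7.32% beside 4.51%. GCN4 itself rose from 147 and 250 to 451 and 845 monosome counts and from 38 and 124 to 141 and 124 disome counts, and its change in enrichment of −0.41 did not pass the test (SE 0.24, edgeR adjusted p = 0.303).

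**Figure D3:**
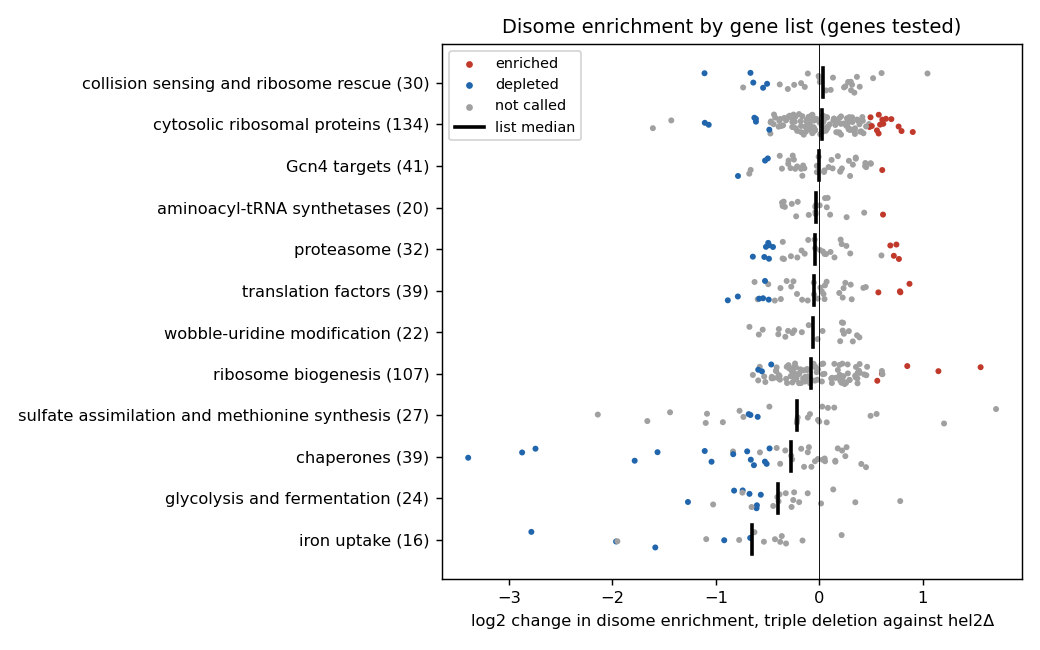
Log2 change in disome enrichment (x axis, triple deletion against *hel2*∆) of the tested members of the 12 gene lists, with enriched members in red, depleted members in blue, members not called in grey and the list median as a black bar. Iron uptake, glycolysis and chaperones have the lowest medians, at −0.65, −0.40 and −0.27, and their called members all lie below 0.

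With *HEL2* present, 1008 of 5389 genes (18.7%) differed in disome enrichment between *ncs2*∆*elp6*∆ and wild type, 540 enriched (10.02%) and 468 depleted (8.68%). This comparison shares no library with that of the triple deletion, but both hold the MET17 difference, and its part in calls made in both was not tested. Depth and the number of monosome libraries differ between them, so the counts of calls are not a measure of strength. In the 5029 genes tested in both, 126 were enriched in both, which is 54.8% of the 230 enriched genes of the triple deletion and 23.4% of the 538 enriched with *HEL2* present, where 10.7% of all these genes were enriched. In both, 89 were depleted, or 39.2% and 19.2% of the respective lists, where 9.23% of all were depleted with *HEL2* present. Opposite calls were made for 4 and 7 genes. Over the 3755 genes with a mean of at least 20 counts, the changes in both backgrounds had a Spearman's rho of 0.385, given as a description since genes are not independent replicates, and rho was 0.293 over all 5029. The SD of the changes over these 3755 genes was 0.52 without and 0.62 with *HEL2*.

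NCB2, YPL199C, SEN15, HAT1, CBP3 and NAT5 led the genes enriched in both backgrounds. NCB2 changed by 2.10 with *HEL2* present beside 2.13 without, YPL199C by 2.19 beside 2.08 and NAT5 by 1.63 beside 1.60. The disome to monosome ratios of HAT1 were 0.86 and 0.06 in wild type and 2.30 and 1.96 in *ncs2*∆*elp6*∆. Scaled in a separate fit, they were 0.69 and 0.02 in *hel2*∆ and 2.14 and 2.29 in the triple deletion. Among the genes depleted in both were KDX1, SSA3, SSA4, YER034W, HSP12, a stress gene whose product protects membranes, and ARG81, a regulator of arginine genes. YER034W changed by −1.88 with *HEL2* present and by −2.37 without it. For HSP12, monosomes rose by 3.79 and disomes by 2.21 in the triple deletion, and its changes in enrichment were −1.59 and, with *HEL2* present, −1.78. ARG81 had an adjusted p of 0.0732 without replicate 2 of the *hel2*∆ monosomes and of 0.0504 without replicate 2 of the triple deletion disomes. None of these genes was called for a difference between the backgrounds. For SSA4 the difference was −1.13 with an adjusted p of 0.0531.

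**Figure D4:**
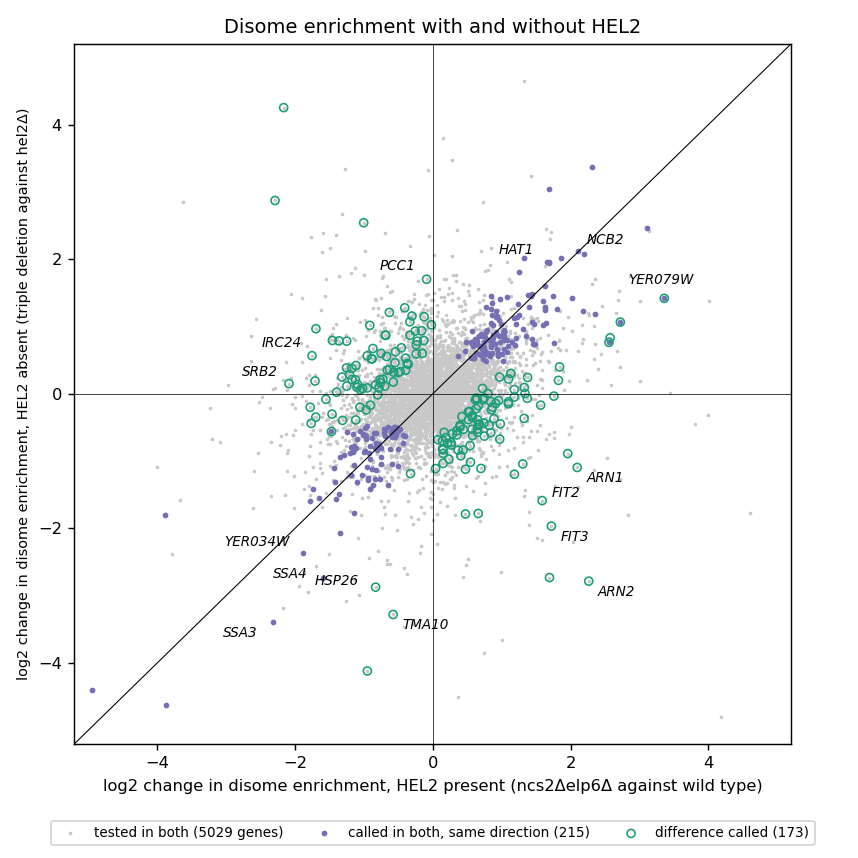
Log2 change in disome enrichment of the 5029 genes tested in both backgrounds, with *HEL2* present on the x axis and absent on the y axis. Purple points mark 215 genes called in the same direction in both and green rings 173 genes called for the difference. NCB2, HAT1 and YER034W lie near the line of equal change and ARN2, FIT3, FIT2 and ARN1 at the lower right. The axes leave out 20 genes.

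The difference between the backgrounds was called for 174 of 5114 genes (3.40%), 79 of them with a higher change without *HEL2* (1.54%) and 95 with a lower one (1.86%). The estimates in the 2 backgrounds had opposite signs for 67 of the 79 and 75 of the 95. This describes genes chosen for a large difference, and calls in opposite directions were made for only 4 and 7 genes in all. The number of calls was 84 without replicate 2 of the *hel2*∆ and 109 without replicate 2 of the triple deletion monosomes, 97 and 81 without replicate 1 and replicate 2 of the *ncs2*∆*elp6*∆ disomes, 312 and 308 without replicate 1 and replicate 2 of the wild-type disomes, and 276 without replicate 2 of the *hel2*∆ disomes.

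Iron genes had the largest negative differences. The ratios below were scaled in a separate fit for each background, so they compare strains within a background only. ARN2 had disome to monosome ratios of −1.77 and −1.13 in wild type, 0.70 and 0.79 in *ncs2*∆*elp6*∆, 1.19 and 1.06 in *hel2*∆ and −1.22 and −1.92 in the triple deletion. Loss of the modifications thus went with more disomes per monosome when *HEL2* was present (log2 change 2.26) and fewer when it was absent (−2.78), a difference of −5.04 (SE 0.57, edgeR adjusted p = 2.85e-06). FIT3 went the same way within each background, at −1.05 and −0.63 in wild type, 0.96 and 0.94 in *ncs2*∆*elp6*∆, 1.35 and 1.60 in *hel2*∆ and −0.60 and −0.30 in the triple deletion. Of the 16 iron uptake genes, 7 (43.8%) were enriched with *HEL2* present, where 10.02% of all genes were. The difference was called lower for 7, beside 1.86% of all genes. The monosome counts of these genes were also low in *hel2*∆, which was not tested here. FIT3 had 130 and 185 monosome counts in *hel2*∆ and between 2617 and 3033 in the deeper wild-type libraries. ARN2 had 33 and 50 against between 678 and 773.

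Other genes lay on the opposite side. IRC24, a reductase, had ratios of −0.51 and 0.77 in wild type and of −1.25 and −1.60 in *ncs2*∆*elp6*∆, but −0.37 and −0.06 in *hel2*∆ and 0.35 and 0.43 in the triple deletion. PCC1 was enriched without *HEL2* (1.70), and with *HEL2* present its change was −0.09 (edgeR adjusted p = 0.873), with a difference of 1.81 (SE 0.41, edgeR adjusted p = 0.0106). Among translation factors, the difference was called higher for GCD1 (1.21) and NIP1 (1.03) and lower for TIF4631 and TIF4632. Of the Gcn4 targets, 17 of 41 (41.5%) were depleted with *HEL2* present, where 8.68% of all genes were, beside 3 (7.32%) without, where 4.51% were. The difference was called higher for 6 of the 41, beside 1.54% of all genes. Of the ribosome biogenesis genes, 27 of 107 (25.2%) were enriched with *HEL2* present, where 10.02% of all genes were, beside the 5 without it. The difference was called lower for 8 of the 107, beside 1.86% of all genes. YER079W, an uncharacterised gene, was enriched in both. Its disome counts were 27 and 67 in *hel2*∆ and 127 and 164 in the triple deletion, a change in enrichment of 1.42 (SE 0.29, edgeR adjusted p = 0.00373), which was smaller than the 3.36 seen with *HEL2* present by 1.92 (SE 0.37, edgeR adjusted p = 0.00408).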

How the data were processed

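The authors deposited unnormalised read counts for each open reading frame, in 1 table of monosome and 1 of disome libraries. To make them, the authors trimmed adapters and linkers, removed reads of noncoding RNA with STAR 2.5.3a and mapped the rest with Bowtie 1.2.3 to open reading frames extended by 21 nucleotides at each end, keeping unique sense matches with up to 1 mismatch. Disome reads were kept at 56 to 64 nucleotides. Reads shared by near-identical genes were therefore dropped. No removal of duplicates was stated, so counting intervals cover counting error only.

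Groups were taken from the sample titles. Counts of the 5693 genes in both tables were tested with edgeR 4.0.16 (quasi-likelihood F test, robust dispersion, TMM, filterByExpr) in R 4.3.3, with limma 3.58.1, as (disome − monosome) of the triple deletion minus that of *hel2*∆ in 1 fit of 8 libraries. The disome and monosome changes came from the same fit, *ncs2*∆*elp6*∆ against wild type from 10 libraries, and the difference between the backgrounds from all 18. P-values were adjusted by Benjamini-Hochberg over all genes tested and called under 0.05. The scripts were tested on simulated data. Alternatives, among them DESeq2 1.42.0, are given with the closing observations.

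Levels are CPM with TMM factors, computed from the counts, and ratios of same-numbered libraries have a prior count of 2. Named were the 12 called genes per direction with the largest change, a mean of at least 20 counts in each library type and ratios beyond those of *hel2*∆, 6 per direction for genes called alike in both backgrounds and for the difference, list members, deleted and marker genes, GCN4 and YER079W. PCC1 was also described for its difference after its values were seen. Members and lists were chosen with earlier results of these data known. Positions and lengths are those of RefSeq R64, in which 5027 of the 5030 tested genes were found. A split by codon or amino acid content was not made.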

Additional observations from a re-analysis of the deposited data

Results flagged for a closer look

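The change in disome enrichment differed between the backgrounds without and with *HEL2* for 174 of 5114 genes (edgeR, interaction of library type, wobble genotype and *HEL2* genotype over all 18 libraries), and each gene below was called by that test. Shown are the genes with the largest differences and list members that were also called for enrichment in the triple deletion. The values are log2 differences, the change without *HEL2* minus the change with it, and no cause was tested.

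The difference was positive for IRC24 (2.34), CWP2, a cell wall mannoprotein (2.27), SRB2 of the Mediator complex (2.26), MIM1 of mitochondrial import (2.17), DFR1, dihydrofolate reductase (2.05), and TOS6, a cell wall protein (1.95). Among listed genes it was also positive for GCD1 (1.21), PUP2 of the proteasome (1.16) and NIP1 (1.03). DFR1 lost its call when any of 6 single libraries was left out, as did SRB2, whose difference was 1.64 without replicate 2 of the wild-type disomes.

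The difference was negative for iron genes, among them ARN2 (−5.04), FIT3 (−3.67), ARN1 (−3.17), FIT2 (−3.15) and ENB1 (−1.31). ARN1 had a difference of −2.45 without replicate 2 of the *hel2*∆ disomes, and ARN2 of −5.68 without replicate 1 of the triple deletion disomes. Next came TMA10 (−2.69), YLR407W, named GAG1 in RefSeq (−2.36), and YER079W (−1.92). Among chaperone genes it was negative for BTN2 (−2.24), HSP26 (−2.02), SSE2 (−1.78), HSP82 (−0.96), HSP78 (−0.95) and HSP104 (−0.82). Among translation genes it was negative for TIF4632 (−1.08), TEF1 (−1.02), TIF4631 (−0.87) and NSA2 (−0.86), and among collision genes for SYH1 (−1.13). Calls were lost when any of 12 single libraries was left out for SYH1, of 7 for HSP104, of 6 for TEF1, of 5 for NSA2, of 3 for HSP26 and of 2 for TIF4631, and when 1 was left out for HSP78, ENB1 and TOS6.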

How the results depend on the processing

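Leaving out 1 library at a time gave between 174 and 832 genes called for disome enrichment, between 1075 and 1655 for disomes, between 831 and 1995 for monosomes, between 494 and 1079 for *ncs2*∆*elp6*∆ against wild type and between 81 and 312 for the difference between backgrounds. For monosomes, 920 and 831 were called without replicate 1 and replicate 2 of *hel2*∆ and 991 without replicate 2 of the triple deletion. With *HEL2* present, 644 and 494 were called without replicate 1 and replicate 2 of the *ncs2*∆*elp6*∆ disomes. DESeq2 called 265 genes for enrichment, 999 for monosomes and 332 for the difference. The cause was not tested. The alternatives run other than these gave counts within 1.5 times the reported ones. Library totals without TMM gave 1333 higher and 416 lower for disomes (767 and 714 with TMM) and 1092 and 512 for monosomes (838 and 763). The median change of all genes went from 0.026 to 0.264 for disomes and from 0.001 to 0.132 for monosomes. With library totals the median changes in enrichment of translation factors, proteasome, synthetases, ribosome biogenesis, wobble-uridine genes and Gcn4 targets turned positive, at 0.015 to 0.116 beside 0.104 for all genes.

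The labels do not say whether a number marks a shared culture, and deviations of same-numbered libraries correlated between −0.074 and 0.032 over genes. With the number as a replicate block, 364 genes were called for enrichment, 1373 for disomes, 1469 for monosomes, 923 with *HEL2* present and 171 for the difference. With same-numbered monosome and disome libraries of a strain as a replicate block, these counts were 539 for enrichment, 791 with *HEL2* present and 206 for the difference.

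Of 1892 alternative values for 112 named or listed genes, 1516 kept the call, 376 lost it and 0 changed sign. Of 447 values for the 27 leading genes, 428 kept it. DESeq2 gave an adjusted p for only 15 of the 27 and called 14 of these. Alternatives that gave a gene no adjusted p are left out of the 1892 and the 447. Genes with few disome counts are limited by depth, and with 2 libraries per group the spread is estimated across genes.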
